A study of Mus musculus with 4 samples.

Results

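Muscle precursor cells grown in culture were set against muscle precursor cells that had been activated by injury in the animal. The comparison covers 4736 cells chosen by measured UMI counts, 2150 from a library of cultured myoblasts and 2586 from a library of activated satellite cells (ASC), out of 14928 cells that meet the same definition in the 4 libraries of the series and 28363 deposited barcodes in all. A barcode was kept if it held 1000 UMIs (counted RNA molecules) and 500 genes or more, and if mitochondrial genes took no more than 10% of its UMIs. A kept cell counted as myogenic with at least 10 UMIs summed over Pax7, Myod1, Des, Cdh15, Itga7 and Fgfr4, and with the macrophage genes Lyz2, Ctss, Tyrobp, Fcer1g and C1qb under 0.5% of its UMIs. This took 89.1% of 2412 kept myoblast cells and 38.4% of 6743 kept ASC cells. Of the other ASC cells, 3288 were over the macrophage limit and under the myogenic one, and they serve here as a reference for RNA of that cell type. Close to the limits, 26 myoblast and 42 ASC cells had 10 to 12 UMIs of the 6 genes, while 48 and 39 had 7 to 9 and stayed out. The levels of these 11 genes chose the cells and are given only as a description.

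All cells carried the Pax7-nGFP reporter, in which the regulatory region of Pax7 drives a nuclear green fluorescent protein. The myoblasts came from 1 male mouse aged 16 weeks and had been expanded to passage 2 in medium with 10% horse serum, 20% fetal bovine serum and 10 ng/ml basic FGF. They were collected with trypsin and not sorted. The ASC were sorted as GFP+ from 17 pooled tibialis anterior muscles of males and females aged 18 to 24 weeks, 3 days after an injection of 10 uM cardiotoxin, a snake toxin that destroys muscle fibres and spares their stem cells. The number of animals behind those muscles is not given in the labels. Each group is 1 library, so no test was made, and culture, age, sex, muscle, sort, digestion and library cannot be told apart. The 2 further libraries, freshly isolated satellite cells (fiSC, sorted as GFP+ from limb muscles of 3 males aged 13 weeks) and myogenic progenitor cells (MPC, the same kind of myoblasts moved into MPC medium with Forskolin, Repsox and CHIR9901 for 5 passages), are cited for levels only. The MPC came from 1 animal aged 16 weeks and had 2 passages as myoblasts.

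Satellite cells lie between a muscle fibre and its basement membrane and are held out of the cell cycle until the fibre is damaged. They then divide as myoblasts under Pax7, Myf5 and Myod1, and leave the cycle when Myog comes on, after which the contractile genes start and the cells fuse. Culture on plastic in serum drives the same sequence without the fibre, the basement membrane or the immune cells that surround a satellite cell in injured muscle.

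The summed libraries held 54112023 UMIs for the myoblasts and 129202826 for the ASC, with a median of 23830.5 and 49205.5 UMIs and 5286.5 and 6507 genes per cell. Levels are in CPM, a gene's UMIs in these sums scaled to a library total of 1000000, and ratios are taken on CPM + 5, so that a fold understates the change of a weakly expressed gene. Exact Poisson intervals (95%) at 50 CPM have a half-width of 3.79% for myoblast and 2.45% for ASC, and they cover counting error only. The limit that a count of 0 allows, taken as 3 counts per library, is 0.0554 CPM in myoblast and 0.0232 CPM in ASC. The libraries shared 3 kept barcodes, 2 of them among the myogenic cells.

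The label was set against marker genes. The 11 progenitor markers summed to 3523 CPM in myoblast and 1324 CPM in ASC, against 102 CPM in the ASC macrophage cells, and 9 of 11 reached 10 CPM in both libraries. The 6 myogenic genes of the rule are among these markers, and the macrophage cells failed that rule, so the sums are a description. Of the markers that the rule did not use, Chrna1 was at 629, 287 and 13.6 CPM in myoblast, ASC and the ASC macrophage cells, Myf5 at 21.4, 35.3 and 1.64 CPM, and Vcam1 at 50.3, 118 and 50.8 CPM. The remaining ones, Msc and Heyl, were under 10 CPM in both libraries. Msc was at 0.111, 8.27 and 0.297 CPM, and Heyl at 3.38, 3.17 and 0.159 CPM. Pax7 was at 1162 CPM in myoblast and 121 CPM in ASC, and the reporter itself at 185 and 33.3 CPM. The 16 macrophage markers summed to 43.7 CPM in myoblast, 6 of them at 0, to 288 CPM in the ASC myogenic cells, none at 0, and to 37202 CPM in the ASC macrophage cells. Lyz2, the lysozyme gene of macrophages, stood at 0.037 CPM and 103.6 CPM. Mural cell markers summed to 644 and 53.7 CPM, with 3 and 2 of 8 at 10 CPM or more, and fibroblast markers to 176 and 58.5 CPM, with 2 and 1 of 10. Unthinned, UMIs of the 4 Y-linked genes Ddx3y, Eif2s3y, Kdm5d and Uty were found in 94.2% of ASC cells and 90.0% of myoblast cells. The median depth was 49205.5 UMIs in ASC and 23830.5 in myoblast. The level of these genes was lower in ASC, at 113 CPM against 167 CPM in myoblast. The ASC label names both sexes.

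The ASC library stood apart in how reads were divided between near-identical gene copies. Eno1b, a near copy of the glycolytic enzyme gene Eno1, took 39.7% of the UMIs of that pair in the ASC myogenic cells and 44.0% in the ASC macrophage cells, against 2.56% in myoblast, 3.42% in fiSC and 3.16% in MPC. The same held for 4 copies of ribosomal protein genes. Rpl10-ps3 took 16.4% of its pair in ASC and 17.2% in the ASC macrophage cells, and 2.21% in myoblast. Rpl9-ps6, Rps27rt and Rpl36a-ps1 took 5.66, 9.13 and 4.93% in ASC and 1.68, 2.22 and 1.21% in myoblast. Every one of these shares was alike in the 2 cell types of the ASC library and lower in the other 3 libraries. The pairs were picked after their values were seen. Single members of gene families with near-identical copies, such as the histones, Hspa1a and Hspa1b, are therefore uncertain in this comparison.

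**Figure D1:**
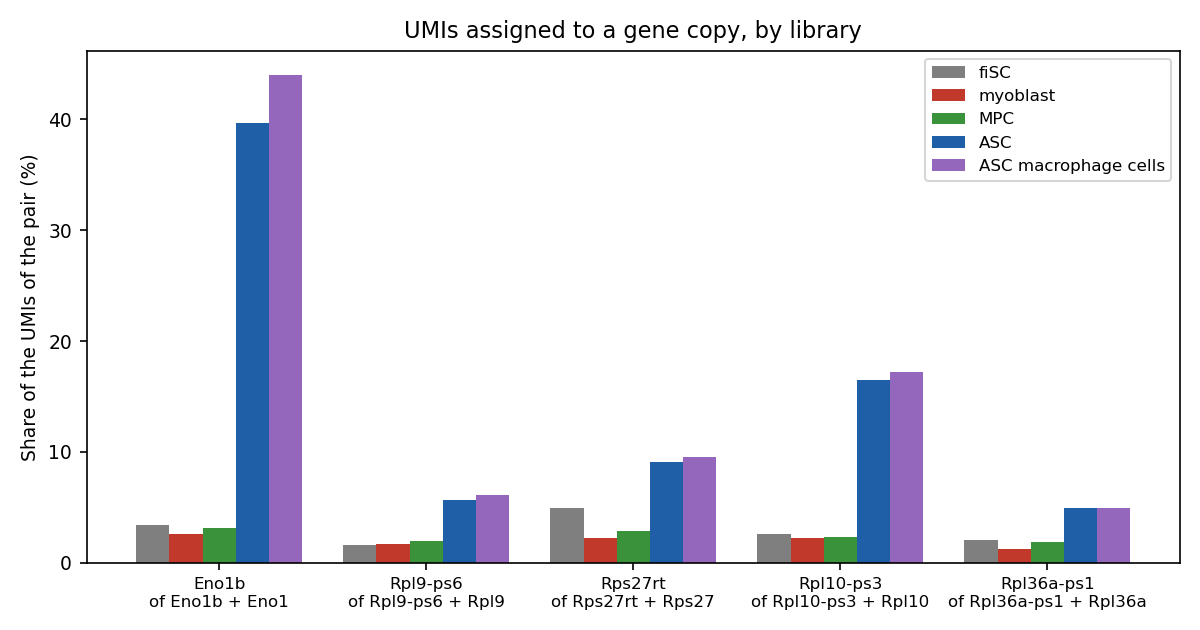
Share of the UMIs of a gene pair that was assigned to the copy, in percent, for 5 pairs. Bars stand for the myogenic cells of each library and for the ASC macrophage cells, and both ASC bars (39.7 and 44.0% for Eno1b) are higher than those of the other 3 libraries for every pair.

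Of 9095 genes that reached 10 CPM in either library, 1340 (14.7%) were at least 2-fold higher in myoblast and 448 (4.93%) at least 2-fold higher in ASC. The median log2 ratio (myoblast over ASC) of all 9095 was 0.17. The myoblast side held 74.9% of these genes. With TMM factors, which centre the ratios on the bulk of the genes, the counts became 945 (10.5%) and 850 (9.42%) and that share 52.6%, with the median at −0.11, so the unequal split depends on the scaling. The counts of a list are to be read against these shares of all genes. Counted over all kept cells, macrophages included, 1366 genes (14.4%) were higher in myoblast and 897 (9.44%) in ASC.

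**Figure D2:**
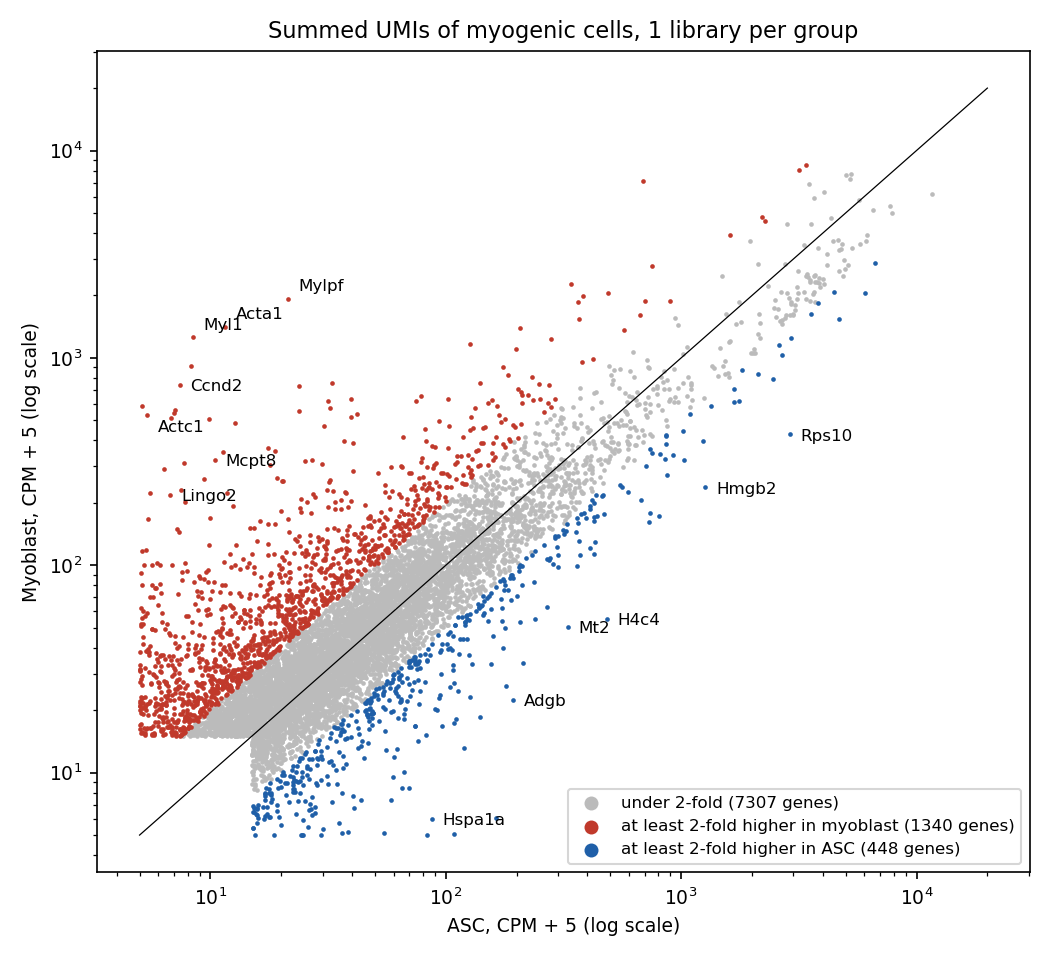
Level of each measured gene in the ASC (horizontal) and myoblast (vertical) myogenic cells, as CPM + 5 on log axes, with equality as a line. The 1340 genes at least 2-fold higher in myoblast are red and reach further from the line than the 448 higher in ASC, in blue.

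Among lists with at least 8 measured members, the largest median ratio lay in the genes of muscle differentiation. Of 26 measured members of the fusion and early differentiation list, 24 were at least 2-fold higher in myoblast and none in ASC, with a median log2 ratio of 4.06. Myl1, an alkali light chain of fast myosin, was at 1262 CPM (1252 to 1271) in myoblast and 3.47 CPM (3.15 to 3.80) in ASC, a fold of 149.6 in CPM + 5. Acta1, the skeletal muscle actin, was at 1398 and 6.54 CPM. Mylpf, the regulatory light chain of fast myosin, was at 1910 and 16.3 CPM. The embryonic light chain Myl4 was at 910 and 3.24 CPM, the cardiac actin Actc1, which is used early in skeletal muscle too, at 524 and 0.387 CPM, and the slow troponins Tnnc1 and Tnni1 at 558 and 2.11 CPM and at 536 and 2.00 CPM. All of these were low in fiSC as well, with Mylpf at 3.54 CPM, and high in MPC, with Mylpf at 893 CPM. Car3, a carbonic anhydrase of slow muscle, followed them at 581 CPM in myoblast and 0.101 CPM in ASC, and the embryonic myosin Myh3 was at 501 and 4.89 CPM. The sequence upstream of the start is shown for 3 of these genes because they moved together, and because the binding motifs of muscle regulators are well described there. The 250 bases before the start are printed (RefSeq, GRCm38.p6, which is not the build of the counts), 5′ to 3′ on the gene's strand. Capitals mark the E-box CAGCTG, a motif bound by Myod1 and Myog, and the CArG box, the motif of serum response factor.
Acta1 (chr8:123894776-123895025, minus strand): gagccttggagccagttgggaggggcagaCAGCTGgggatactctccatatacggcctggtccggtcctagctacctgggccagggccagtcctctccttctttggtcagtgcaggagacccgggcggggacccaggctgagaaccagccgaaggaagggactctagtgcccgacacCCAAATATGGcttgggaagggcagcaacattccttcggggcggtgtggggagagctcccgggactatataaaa
Actc1 (chr2:114052876-114053125, minus strand): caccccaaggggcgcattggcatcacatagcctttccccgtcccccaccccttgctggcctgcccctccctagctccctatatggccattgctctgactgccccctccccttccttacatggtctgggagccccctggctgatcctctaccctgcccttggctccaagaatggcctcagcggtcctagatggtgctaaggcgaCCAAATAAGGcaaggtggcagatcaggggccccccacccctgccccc
Mylpf (chr7:127211358-127211607, plus strand): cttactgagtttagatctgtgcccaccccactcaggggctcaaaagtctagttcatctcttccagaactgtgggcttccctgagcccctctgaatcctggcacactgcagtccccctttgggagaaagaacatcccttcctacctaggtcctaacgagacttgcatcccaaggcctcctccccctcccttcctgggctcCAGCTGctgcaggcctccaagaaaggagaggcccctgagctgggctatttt
Acta1 holds 1 motif of each kind, Actc1 a CArG box and Mylpf an E-box. Of the 24 list members higher in myoblast, 18 had a window of this length, and 7 of them (38.9%) held CAGCTG, which reads the same on both strands, against 12.9% of 27025 genes. The CArG box was found in 2 of the 18 (11.1%), against 1.39% of all genes. The general TATA box TATAAA, searched on both strands, was found in 6 of the 18 (33.3%), against 12.9% of all genes. These are matches of letters, not measured binding.

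The differentiation genes were carried by some of the myoblasts. Cells with a Myog UMI, or with at least 0.2% of UMIs in Acta1, Myh3, Mylpf, Tnnc2, Ckm and Mymk, are called differentiating here. They made up 32.5% of the myoblasts (699 cells) and 19.3% of the ASC (498 cells), a share that depth also moves. The class was not alike in the libraries. Mylpf was at 5455 CPM in differentiating myoblasts and 51.7 CPM in differentiating ASC, and Myog at 667 and 130 CPM. In ASC the class was close in size to the 19.2% of cells with a Myog UMI. When every cell was thinned to 2000 UMIs, Myog, the factor that starts terminal differentiation, was seen in 15.3% of myoblasts and 3.75% of ASC, against 0.167% of ASC macrophage cells, which should lack it (unthinned 32.2, 19.2 and 1.76%). Mylpf was seen in 32.1, 2.32 and 0.703% of the cells, and unthinned in 77.8, 24.0 and 3.71%. Among cycling cells without the differentiating ones (828 myoblasts and 1851 ASC, a choice made after seeing the data), 15 of 20 measured list members were still at least 2-fold higher in myoblast, where 13.2% of all genes were (3.96% were higher in ASC). The median log2 ratio fell to 1.72, and Myl1 was at 26.5 and 1.92 CPM. That cell set was cut with Myog and members of the list, so part of this drop was built in. Myl1 was at 3684 CPM in the differentiating myoblasts, and the part of RNA carried over from those cells was not tested. Mef2c, a cofactor of Myog in switching on contractile genes, was at 347 CPM in myoblast and 6.32 CPM in ASC, but at 8.84 and 4.46 CPM in the cycling, non-differentiating cells.

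The factors that define the lineage varied among themselves. Of 17 measured myogenic transcription factors, 9 were higher in myoblast, among them Pax7 and Myod1, which the rule used, and Eya1 in ASC. Myod1, which commits cells to the lineage, was at 459 and 191 CPM. Myf5, its relative in early myoblasts, was at 21.4 CPM in myoblast and 35.3 CPM in ASC, both far below the 407 CPM of fiSC. Eya2 was at 18.37 and 1.42 CPM, and Mef2a at 454 and 138 CPM. Id3, which blocks the partners of Myod1, was at 660 and 205 CPM. Eya1 stood at 27.0 and 72.6 CPM.

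The cell cycle differed in its extent and in its regulators. A cell was called cycling with at least 2 UMIs of the 20-gene G2/M list among 2000. This share was 49.98% of myoblasts (exact binomial interval 47.8 to 52.1%) and 88.4% of ASC (87.1 to 89.6%), and 8.20% of the ASC macrophage cells. It was 35.2% in differentiating and 57.1% in the other myoblasts, and 87.6 and 88.6% in ASC, so the gap was present outside the differentiating cells too. The G2/M list had a median log2 ratio of −0.32 over all myogenic cells, with 1 of 20 genes higher in ASC (Birc5, at 107 and 294 CPM), and of 0.39 among cycling, non-differentiating cells, where none passed 2-fold. DNA replication genes had a median of −0.90, with 6 of 20 higher in ASC, led by Dut, which keeps uracil out of DNA, at 124 and 427 CPM, Mcm5 of the replicative helicase at 26.6 and 70.5 CPM, and Pcna, the polymerase clamp, at 82.1 and 189 CPM. With TMM factors 13 of the 20 were higher in ASC and the median was −1.17. In cycling, non-differentiating cells 1 of 20 was higher on each side and the median was −0.43.

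Cyclin D2 set the cultures apart. Ccnd2 (ENSMUSG00000000184), which pairs with Cdk4 and Cdk6 to drive cells out of G1, was at 736 CPM (729 to 743) in myoblast and 2.44 CPM (2.18 to 2.72) in ASC, a fold of 99.7 in CPM + 5. It was at 1.68 CPM in fiSC and 79.0 CPM in MPC, so both sorted libraries were low and both cultures higher. The difference lay across the whole culture. Thinned to 2000 UMIs, 58.0% of myoblasts had a Ccnd2 UMI, 55.2% of the cycling and 60.7% of the non-cycling ones. In ASC 0.348% did, no more than the 0.535% of the macrophage cells, which is read as background. Unthinned, the shares were 88.9% of myoblasts, 7.66% of ASC and 1.64% of the macrophage cells, at median depths of 23830.5, 49205.5 and 15203 UMIs. Ccnd3, the cyclin that accompanies differentiation, was at 296 and 59.7 CPM. Ccnd1, the cyclin of growth factor signalling, was at 566 and 413 CPM and did not reach 2-fold. It was seen in 59.2% of myoblasts and 49.1% of ASC (unthinned 89.7 and 96.0%).

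Targets of p53 and inhibitors of the cycle differed in both directions. Of 18 measured p53 targets and inhibitors, 10 were higher in myoblast and 3 in ASC, with a median log2 ratio of 1.04, and 1.02 among cycling, non-differentiating cells. Cdkn2a, the locus of p16 and p19Arf, was at 223 CPM in myoblast and 28.1 CPM in ASC, and at 2.22 CPM in fiSC and 35.8 CPM in MPC. Its UMIs were seen in 34.1% of myoblasts, 5.61% of ASC and 0.234% of ASC macrophage cells (unthinned 93.3, 62.8 and 1.86%). Ccng1 was at 182 and 28.8 CPM, and Eda2r, a p53-driven receptor, at 67.5 and 12.5 CPM. Cdkn1a, which encodes p21, was at 603 and 146 CPM, and was seen in 69.1% of the differentiating and 46.7% of the other myoblasts, in 24.7% of ASC and in 52.3% of the ASC macrophage cells. The 3 genes higher in ASC were the inhibitors Cdkn1b (17.2 and 41.4 CPM) and Cdkn2d (11.4 and 37.3 CPM) and the stress cytokine Gdf15 (7.72 and 22.8 CPM). Gdf15 was at 463 CPM in the ASC macrophage cells, and their part in its ASC level was not tested.

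**Figure D3:**
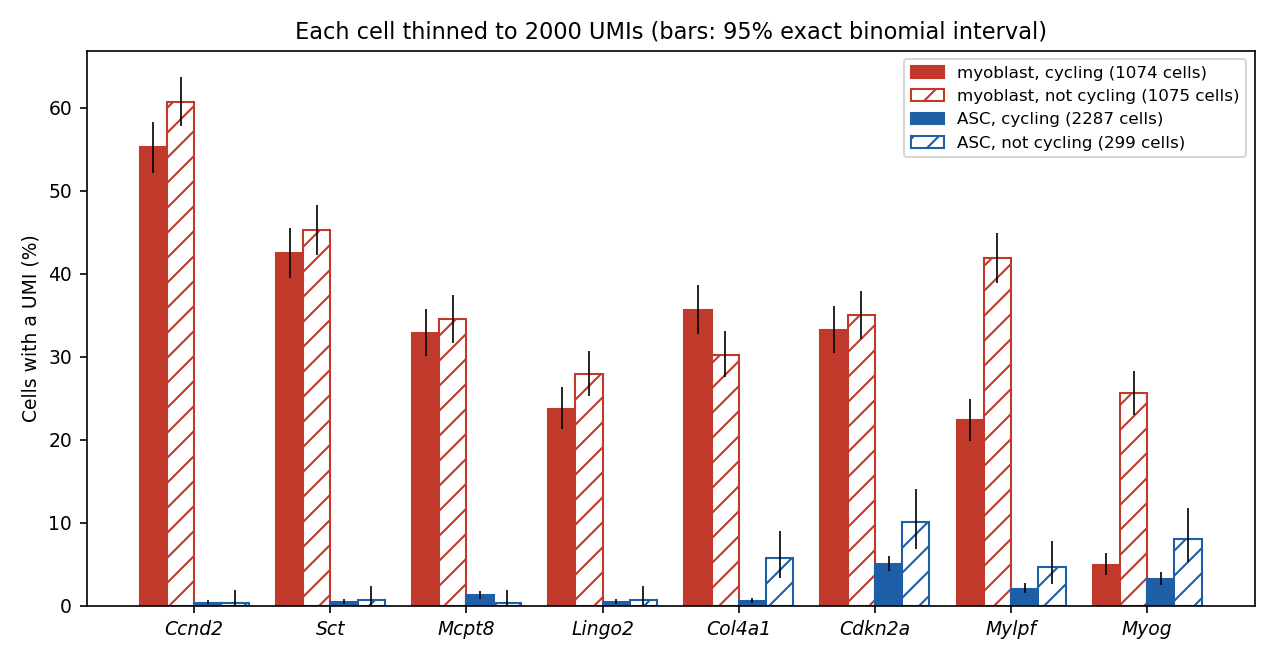
Share of cells with at least 1 UMI of 8 genes, in percent, with each cell thinned to 2000 UMIs and exact 95% binomial intervals that cover counting error only. In myoblast, Ccnd2 (55.2 and 60.7%) is alike in cycling and non-cycling cells while Myog is seen mostly in non-cycling ones (4.93 and 25.6%). Set against myoblasts of the same class, cycling or non-cycling, ASC shares are lower for all 8 genes.

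Genes of the surrounding matrix were mostly higher in myoblast. Of 11 measured basement membrane genes, 8 were and none was higher in ASC (median log2 2.21, and 2.02 in cycling, non-differentiating cells). Col4a1 and Col4a2, the chains of the collagen network of that sheet, were at 225 and 2.52 CPM and at 140 and 2.34 CPM. Both were also high in fiSC, at 466 and 158 CPM, so it was the ASC that stood low among the 4 libraries. Col18a1 was at 249 and 15.1 CPM, and the entactin Nid2 at 31.5 and 1.94 CPM. The laminin chain Lamb1 was at 145 and 26.2 CPM. Of 14 glycoproteins and proteoglycans, 9 were higher in myoblast and none in ASC (median log2 1.10), against 14.7 and 4.93% of all genes. With TMM factors 6 of these 14 were higher in myoblast (10.5% of all genes), and the median was 0.87. The basement membrane count stayed at 8 of 11. Spp1, osteopontin, was at 7159 and 686 CPM, and at 11956 CPM in the ASC macrophage cells. Mgp was at 361 and 12.6 CPM, Bgn at 144 and 2.21 CPM, fibronectin (Fn1) at 300 and 12.9 CPM and tenascin C (Tnc) at 394 and 32.1 CPM. Of 9 measured fibrillar and beaded collagens, 6 were higher in myoblast and 2 in ASC. Col1a2, a chain of type I collagen, was among those higher in ASC, with 11.7 and 69.2 CPM. The cultures were not sorted, and the fibroblast marker sums given above (176 and 58.5 CPM) were higher there too. Most of both sums was Col3a1, itself a matrix gene, at 154 and 49.1 CPM, and at 387 CPM in fiSC. The part of fibroblasts in the matrix genes was not tested.

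Genes of the actin cytoskeleton and of the tension-sensitive factors were higher in myoblast in part. SRF and actomyosin genes were higher in 12 of 25 cases and lower in 1 (Csrp2, at 22.4 and 76.4 CPM). YAP and TEAD targets were higher in 8 of 12 and lower in none. Of all genes 14.7% were higher and 4.93% lower in myoblast. With TMM factors 10 of 25 and 7 of 12 were higher (10.5% of all genes). Lower were 3 of the 25 and none of the 12 (9.42% of all genes). Tagln, a calponin relative of contractile smooth muscle, was at 198 and 2.76 CPM, the smooth muscle actin Acta2 at 567 and 27.2 CPM, the calponin Cnn2 at 147 and 9.80 CPM, and the light chain Myl9 at 158 and 11.2 CPM. Acta2 is also a mural marker, and the part of mural cells in its level was not tested. Ankrd1, the best known YAP target in muscle, was at 2267 CPM in myoblast, 336 CPM in ASC and 606 CPM in fiSC. Crim1 was at 77.3 and 12.8 CPM. Ccn1, another such target, was at 69.5 and 50.04 CPM and did not reach 2-fold. Actb and Actg1, the general actins, were at 4421 and 3570 CPM and at 1941 and 2868 CPM.

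Receptors and signals differed gene by gene. Hes1, the Notch effector that keeps precursors undifferentiated, was at 313 CPM in myoblast, 20.1 CPM in ASC and 99.0 CPM in fiSC, and Hes6, which acts against Hes1, at 323 and 74.5 CPM. The ligand Dll1 was at 5.71 and 17.5 CPM. Of 10 measured Notch genes 4 were higher in myoblast and 1 in ASC, against 14.7 and 4.93% of all genes, and with TMM factors 2 were higher in myoblast. The secreted BMP blocker Grem1 was at 24.4 CPM in myoblast and 0.124 CPM in ASC. Of the TGF-beta targets 7 of 12 were higher in myoblast (14.7% of all genes), and 4 of 11 with TMM factors (10.5%). Among them were Pmepa1, which dampens the pathway, at 239 and 49.95 CPM, and Skil at 106 and 20.3 CPM. Among surface receptors Itga6, a laminin receptor chain, was at 257 and 4.41 CPM, and Megf10, an engulfment receptor of satellite cells, at 250 and 15.4 CPM. Itga7 and Fgfr4, genes of the rule, were at 114 and 79.3 CPM and at 32.7 and 54.9 CPM.

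Several genes higher in myoblast are known mainly from other tissues, while others named with them, such as Rbfox1, are used in muscle too. Sct, the gut hormone secretin, was at 510 CPM (504 to 516) in myoblast, 1.80 CPM in ASC, 0.180 CPM in fiSC and 28.4 CPM in MPC. It was seen in 42.5% of the cycling and 45.3% of the non-cycling myoblasts, and in 0.425% of ASC and 0.0669% of ASC macrophage cells. Unthinned, it was seen in 79.7, 6.07 and 0.152% of the myoblast, ASC and macrophage cells. Mcpt8, a protease of basophils, was at 318 and 5.46 CPM, and at 0.053 CPM in MPC. Gzme and Gzmd, granzymes of killer cells, were at 113 and 0.341 CPM and at 56.9 and 0.062 CPM, with no UMI in fiSC. Mcpt8 UMIs were found in 33.7% of myoblasts and 1.16% of ASC (unthinned 76.6 and 18.1%). In myoblast the 7 T or NK cell markers summed to 0.684 CPM and the 6 neutrophil markers to 0.628 CPM. No list of basophil or mast cell markers was used, and the part of those cells was not tested. Rbfox1, a splicing regulator of muscle and neurons, was at 305 and 2.76 CPM. Lingo2, a neuronal membrane protein, was at 213 and 1.76 CPM, 2.04 CPM in fiSC and 3.08 CPM in MPC. Of 16 measured neural-type genes 10 were higher in myoblast, led by Dpysl3, at 465 and 25.4 CPM, and the guidance signal Sema3a, at 258 and 14.2 CPM, and 2 in ASC, Nrcam at 40.8 and 102.6 CPM and Gdnf at 2.94 and 13.1 CPM. Fetal growth genes split. Hmga2, a chromatin protein of fetal and tumour cells, was at 1388 CPM in myoblast, 202 CPM in ASC and 7.79 CPM in fiSC, and the Hmgb proteins were higher in ASC. Of 10 measured imprinted genes 7 were higher in myoblast (14.7% of all genes), among them Plagl1 (153 and 12.6 CPM) and Peg3 (897 and 170.1 CPM). With TMM factors 4 of 9 were higher in myoblast (10.5% of all genes) and 1 in ASC.

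**Figure D4:**
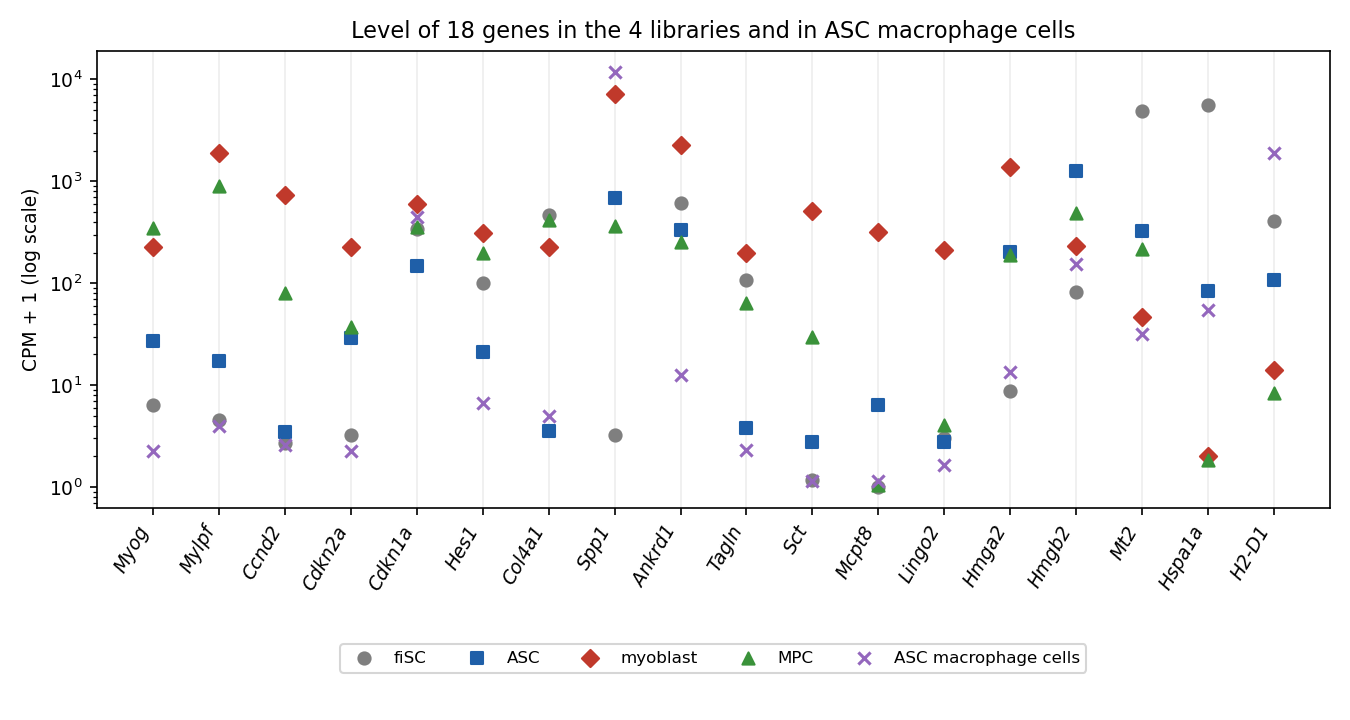
Level of 18 genes as CPM + 1 on a log axis in the myogenic cells of the 4 libraries and in the ASC macrophage cells, 1 symbol per library. Sct, Mcpt8 and Lingo2 (510, 318 and 213 CPM) are highest in myoblast, while Mt2 and Hspa1a are highest in fiSC and higher in ASC than in myoblast.

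On the CPM scale fewer genes were higher in ASC, a gap that TMM factors narrowed as given above. Hmgb2, which bends DNA in dividing cells, was at 232 CPM (228 to 237) in myoblast and 1264 CPM (1258 to 1270) in ASC, a fold of 5.34 in CPM + 5. It was at 155 CPM in the ASC macrophage cells and was seen in 86.7% of ASC and 28.2% of myoblasts (unthinned 98.8 and 64.1%). Restricted to cycling, non-differentiating cells it was at 401 and 1287 CPM. The related Hmgb1 and Hmgb3 were at 1150 and 2588 CPM and at 75.5 and 206 CPM. Replication-dependent histones were higher in ASC for 9 of 15 measured list members and in myoblast for none (median log2 −1.35), against 4.93% of all genes. In cycling, non-differentiating cells 6 of 15 were higher in ASC, against 3.96% of all genes, and the median was −0.85. H4c4, a copy of the H4 gene, was at 50.4 and 481 CPM, and H2ac4, a copy of H2A, at 13.5 and 135 CPM. Summed over all copies, H4 was at 109 and 609 CPM, H3 at 77.8 and 297 CPM, H2B at 139 and 286 CPM and H1 at 572 and 1438 CPM. Such sums do not depend on how reads are split within a family. How reads that match several copies were counted is not known, so the sums may still be affected. The list and the H1 sum also hold H1f0, which is not replication-dependent. The H2A sum went the other way, with 737 and 575 CPM, because of the single gene H2ac24, and without it was at 188 and 556 CPM. H2ac24 is outside the lists and was picked after its value was seen, and the sum without it again depends on how reads are split.

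Both inducible Hsp70 genes and both metallothioneins were higher in ASC than in myoblast and highest in fiSC. Hspa1a and Hspa1b, the inducible Hsp70 pair, were at 1.00 and 82.1 CPM and at 2.40 and 53.8 CPM, with 5585 and 4711 CPM in fiSC. The metallothioneins Mt1 and Mt2, which bind zinc and copper, were at 157 and 724 CPM and at 45.4 and 325 CPM, with 8589 and 4927 CPM in fiSC. Fos, an immediate early gene, was at 8.19 and 114 CPM, with 2186 CPM in fiSC and 301 CPM in the ASC macrophage cells. Of the 20 measured genes of its list, 4 were higher in each library, against 14.7% of all genes in myoblast and 4.93% in ASC. The median log2 ratio was −0.52. With TMM factors 2 were higher in myoblast and 6 in ASC (10.5 and 9.42% of all genes), and the median was −0.77. Of the heat shock list 4 of 17 genes were higher in ASC, where 4.93% of all genes were, and 3 in myoblast, where 14.7% were. Among the 3 were the small heat shock proteins Hspb8 and Cryab, at 126 and 10.8 CPM and at 412 and 60.5 CPM. Cav1, a caveolar coat protein, was at 12.4 and 103 CPM, with 495 CPM in fiSC.

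Several immune genes were higher in ASC, and higher still in the ASC macrophage cells. Of 12 measured interferon and MHC class I genes, 6 were higher in ASC and none in myoblast, against 4.93 and 14.7% of all genes. Not all of the 6 were higher still in the macrophage cells. Psmb10, an immunoproteasome subunit, was at 102 CPM in ASC and 98.9 CPM in the macrophage cells. H2-D1 and H2-K1, heavy chains of class I, were at 13.0 and 106 CPM and at 11.2 and 42.3 CPM, and at 1893 and 933 CPM in the ASC macrophage cells. Both were also expressed in fiSC, at 409 and 282 CPM, where the macrophage markers summed to 7.55 CPM. The chemokines Cxcl2 and Cxcl1 were at 78.1 and 49.8 CPM in ASC, at 9289 and 1763 CPM in the macrophage cells, and in myoblast at 0 UMIs for Cxcl2. The part of macrophage RNA in these ASC levels was not tested. Csf1, the growth factor of macrophages, was higher in myoblast at 273 and 64.7 CPM, with 7.95 CPM in the macrophage cells.

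Ribosomal and translation genes leaned to ASC, the ribosomal protein genes by an amount not far under 2-fold in CPM, and the counts moved with the scaling. The median log2 ratio was −0.80 over 27 ribosomal protein genes, of which Rpl26, Rps2 and Rps18 passed 2-fold, and −0.72 over 16 mitochondrial ribosomal protein genes, where Mrpl12, Mrpl20 and Mrps28 did. With TMM factors 16 of the 27 and 8 of the 16 passed, and the median over the 27 was −1.10. Of 20 genes of ribosome biogenesis and translation 4 were higher in ASC with a median of −0.41, and 8 with TMM factors with a median of −0.70. Rps10, a gene of the small subunit outside that list, was at 422 and 2903 CPM, with 1356 CPM in the ASC macrophage cells and 948 and 537 CPM in fiSC and MPC. The mitochondrially encoded genes leaned to myoblast, with 7 of 13 higher and a median of 1.00, and with 4 of 13 and 0.73 under TMM factors. The cells there had a median of 5.94% mitochondrial UMIs against 3.14% in ASC, values that the limit of 10% in the choice of cells bears on. Of the 448 genes higher in ASC, 190 were at least 2-fold above each of the other 3 libraries. Of those 190, 28 were also that far above them in the ASC macrophage cells. They include macrophage genes, and also Adgb, a globin of the testis, at 17.4 CPM in myoblast, 189 CPM in the ASC myogenic and 141 CPM in the ASC macrophage cells, and Psmb10, an immunoproteasome subunit, at 26.1, 102 and 98.9 CPM. How far the gene copies described above bear on these levels was not tested. The ratio rule also named C2, a complement gene, at 3.46 and 64.9 CPM, Cecr2, a chromatin reader, at 5.05 and 61.3 CPM, and Taf1c, of RNA polymerase I, at 10.2 and 77.6 CPM. Of all 448, 85 were lower in the ASC myogenic than in the ASC macrophage cells.

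**Figure D5:**
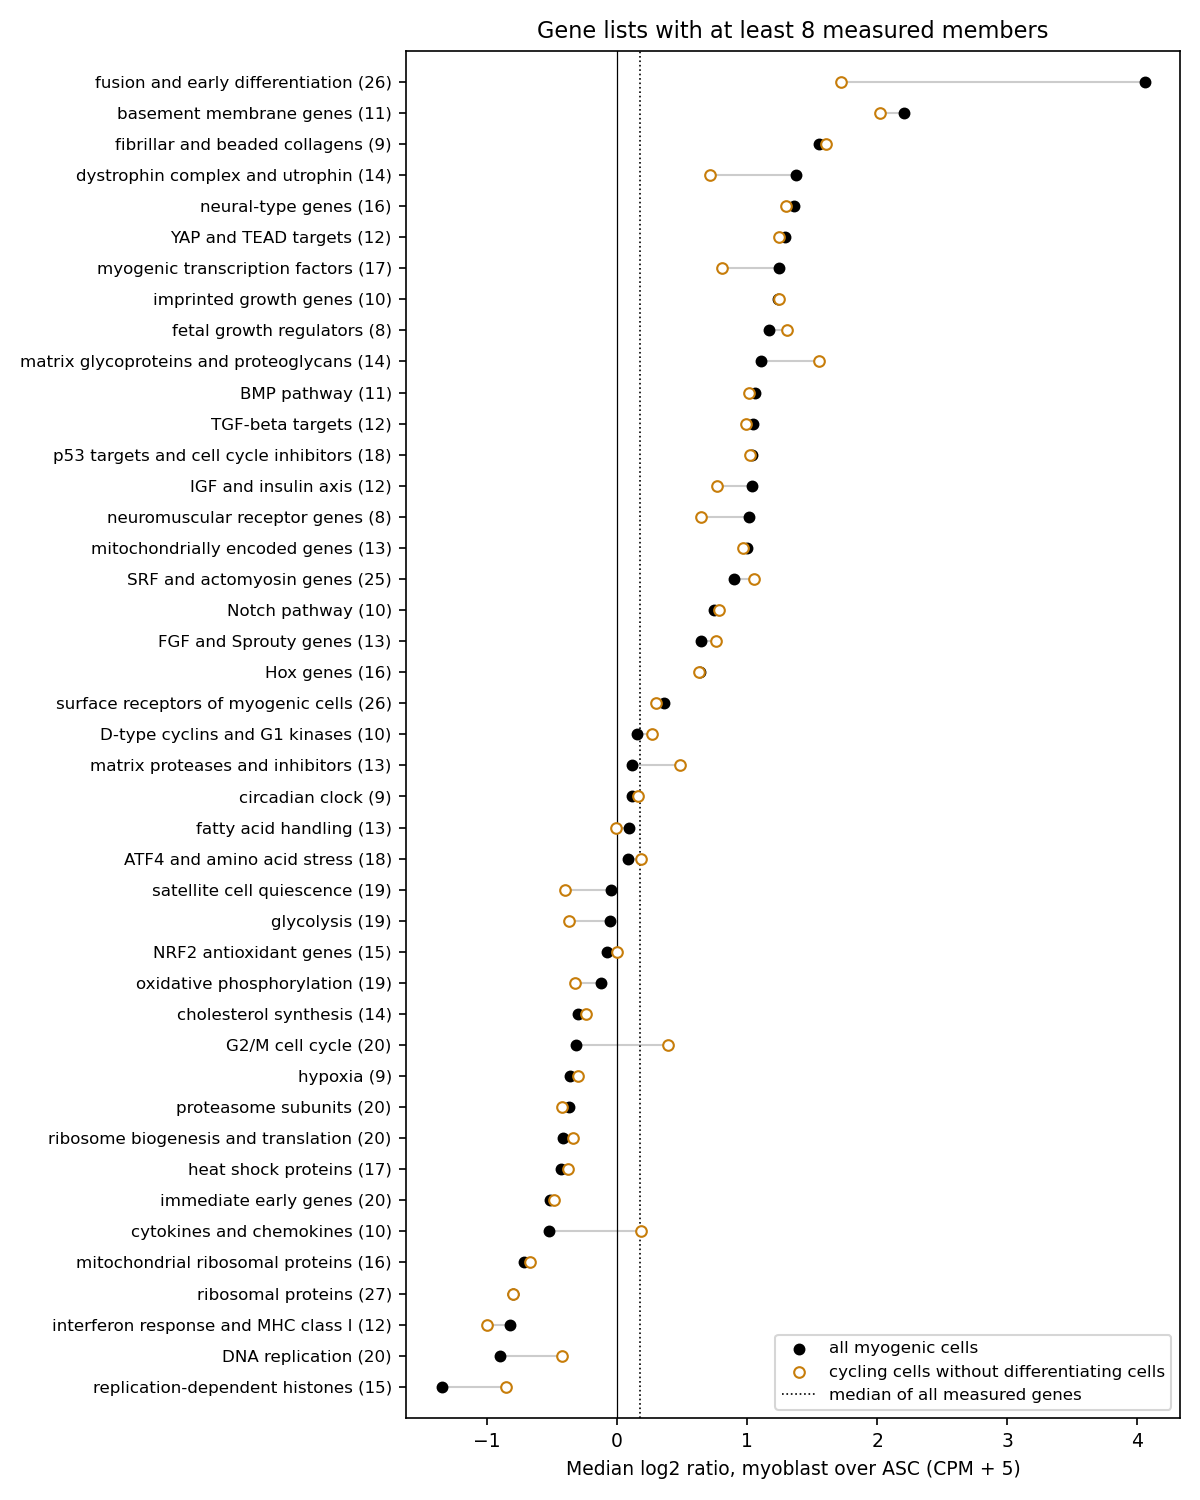
Median log2 ratio (myoblast over ASC, CPM + 5) of each gene list with at least 8 measured members (their number in parentheses), for all myogenic cells (filled) and for cycling cells without differentiating cells (open). Fusion and early differentiation moves most (4.06 to 1.72), while basement membrane genes (2.21 to 2.02) and p53 targets (1.04 to 1.02) stay, and the dotted line is the median of all genes (0.17).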

How the data were processed

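Droplet-based single-cell RNA libraries (Chromium Next GEM 3′ v3.1, NovaSeq, per the labels) were deposited by the authors as raw UMI counts per gene and barcode. Per the submitters' processing notes, STAR 2.7.10b and GRCm39 were used. The UMI collapsing, the calling of cells and the gene annotation are not given in the sources used here. The tables hold 25828 features under 25804 symbols, and the counts of 22 symbols on more than 1 feature were summed. Xist is not analysed here.

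Counts of myogenic cells were summed per library, scaled to CPM, and compared as log2 ratios of CPM + 5. A gene was called at a ratio of 2-fold or more if the higher library reached 10 CPM. No test was run, since each group is 1 library and cells are not replicates. Intervals are exact Poisson or Clopper-Pearson at 95%. Shares of cells use each cell thinned to 2000 UMIs without replacement, which left out 1 myoblast. Shares marked as unthinned, and those of differentiating cells, use all UMIs. Doublets were scored with Scrublet (scanpy 1.11.5) and removed only as an alternative (46 myoblast and 53 ASC cells). Alternatives covered cell sets, TMM (edgeR 4.0.16), median-of-ratios factors, pseudocounts and filters. The members and the 49 gene and 14 marker lists were chosen with earlier results of these data known. Named genes are the 15 highest and 15 lowest ratios with at least 50 CPM that met the size rule in myogenic, all kept, cycling and non-differentiating cells, those higher in ASC also being at least as high there as in ASC macrophage cells, plus up to 6 members per list, largest ratio first, and list members below 2-fold where the list is known for them. Members named to spell out a count of 5 or fewer were chosen after their values were seen. The scripts were tested on simulated data.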

Additional observations from a re-analysis of the deposited data

How the results depend on the processing

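Under 18 other settings all 30 genes named by the ratio rule kept their direction and stayed at 2-fold or more. Their choice had required this in all kept, cycling and non-differentiating cells, so there it holds by construction. The 19 lists with a median of at least 1 in size kept their sign. With no minimum level, though, the median log2 ratio was 0.019 for granzymes and mast cell proteases, 0.043 for Wnt genes and 0.30 for fibrillar collagens. In the main setting these medians, not given above, were 4.47, 1.55 and 1.55. Against 1340 and 448 genes higher in myoblast and ASC, the ASC count was 897 over all kept cells, 734 in non-cycling cells, 850 with TMM factors, 865 with median-of-ratios factors and 185 with a pseudocount of 20 CPM, which also gave 694 for myoblast. The cause was not tested. The settings of cycling cells without differentiating cells and ASC cells with a Y-linked UMI were chosen after seeing the data. The share of cycling cells, 49.98 and 88.4%, was 85.95 and 99.6% without thinning, 62.5 and 97.4% at 5000 UMIs and 47.8 and 46.4% over all kept cells. A planned setting that needs Xist was not run. No paired analysis was possible because each group is 1 library, and no replicate could be left out. All ratios rest on 1 library per group, and depth limits shares of cells more than sums.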
